A study of Caenorhabditis elegans with 2 samples.

Results

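The nuclear hormone receptor genes nhr-49, nhr-80, nhr-13 and nhr-66, the SREBP gene sbp-1 and the Mediator subunit gene mdt-15 form a set of 6 Caenorhabditis elegans genes that regulate lipid metabolism. They were taken by name from the 19973 nuclear protein-coding genes of the WBcel235 annotation. The peaks described are those whose summit lay inside a gene or within 5 kb of either end, 22 of the 8748 nuclear peaks. The data are chromatin immunoprecipitation and sequencing (ChIP-seq) of DAF-16, the worm's FOXO transcription factor, which acts downstream of insulin-like signalling. The study held 2 biological replicates of 1 group and nothing to contrast them with, so it asks where along the genome DAF-16 lay. The animals were L4 larvae of strain XE1464 on the unc-119(ed3) III background, with their sex labelled as males and females pooled. Both replicates carried an insertion targeting daf-16, a stably expressed transgene whose DAF-16 bears GFP and FLAG at its C terminus. The labels give neither their age nor how the cultures were separated. Whole animals were used, so binding in many cells and strong binding in few cells cannot be told apart.

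NHR-49 is an HNF4-related receptor that plays the part mammalian PPARalpha plays in fasting, and it switches on fatty acid oxidation and desaturation genes. NHR-80 and NHR-13 partner it at desaturase genes, and NHR-66 partners it at genes of sphingolipid breakdown and lipid remodelling. SBP-1, the worm SREBP, drives fatty acid synthesis and desaturation, and MDT-15 is the Mediator subunit through which both NHR-49 and SBP-1 reach the transcription machinery.

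Peaks came from the authors' IDR-thresholded list, IDR being the irreproducible discovery rate, which compares peak ranks between replicates. Each peak has a signal, the authors' own score, whose scale is not stated. It ranks peaks within 1 list, and values from different lists are given side by side without comparison of size. Each replicate also has a longer list, of 16146 regions in replicate 1 and 21378 in replicate 2, background regions included. A summit within 100 bp in that list counted as a counterpart. The read depth is unknown, since the lists hold no read counts.

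All 6 genes had a DAF-16 peak within 5 kb, as had 54.3% of all protein-coding genes. In 5 of the 6 genes a summit lay in a promoter window, from 1000 bp before to 300 bp after an annotated start, and mdt-15 was the gene without one. Of all protein-coding genes 23.9% had such a peak, a share that would give 1.44 of 6 genes. That share was not matched for the number of annotated starts per gene, which ran from 1 at sbp-1 to 7 at nhr-66. Both replicates held a counterpart of 21 of the 22 peaks, against 77.3% of all nuclear peaks. The signals of the 22 peaks ran from 43.6 to 391 with a median of 153, and 15 of them exceeded the nuclear median of 107. Only 10 of the 22 lay in the gene's own promoter window, and 9 were nearer to the start of another gene. By annotation 14 were intergenic, 3 lay in exons of a non-coding RNA, 2 in 3' UTRs and 1 each in a 5' UTR, a coding exon and an intron. Their median width of 325 bp and GC content of 36.3% were close to the 320 bp and 36.6% of all nuclear peaks.

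nhr-49 lies on the forward strand of chromosome I from 9869651 to 9874680, has 6 annotated starts and had 3 peaks, each in a promoter window. The strongest had its summit 406 bp upstream of the first start, in intergenic sequence, with a signal of 312 among the IDR-thresholded peaks, of 147 in replicate 1 and of 176 in replicate 2. It ranked 786th of the nuclear peaks, within the top 8.98%. A second summit of the same 472 bp interval lay 205 bp upstream of the start, with a signal of 65.2 and of 69.1 in replicate 1. It was the only 1 of the 22 peaks with no counterpart in replicate 2, whose nearest summit was 201 bp away at the first summit of the pair. The remaining peak lay in an intron, 104 bp upstream of an internal start, with a signal of 58.9, of 34.7 in replicate 1 and of 14.9 in replicate 2. The nhr-49 region thus held a strong summit found in both replicates, a weaker summit beside it listed in replicate 1, and a weak peak near the start of shorter transcripts.

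**Figure D1:**
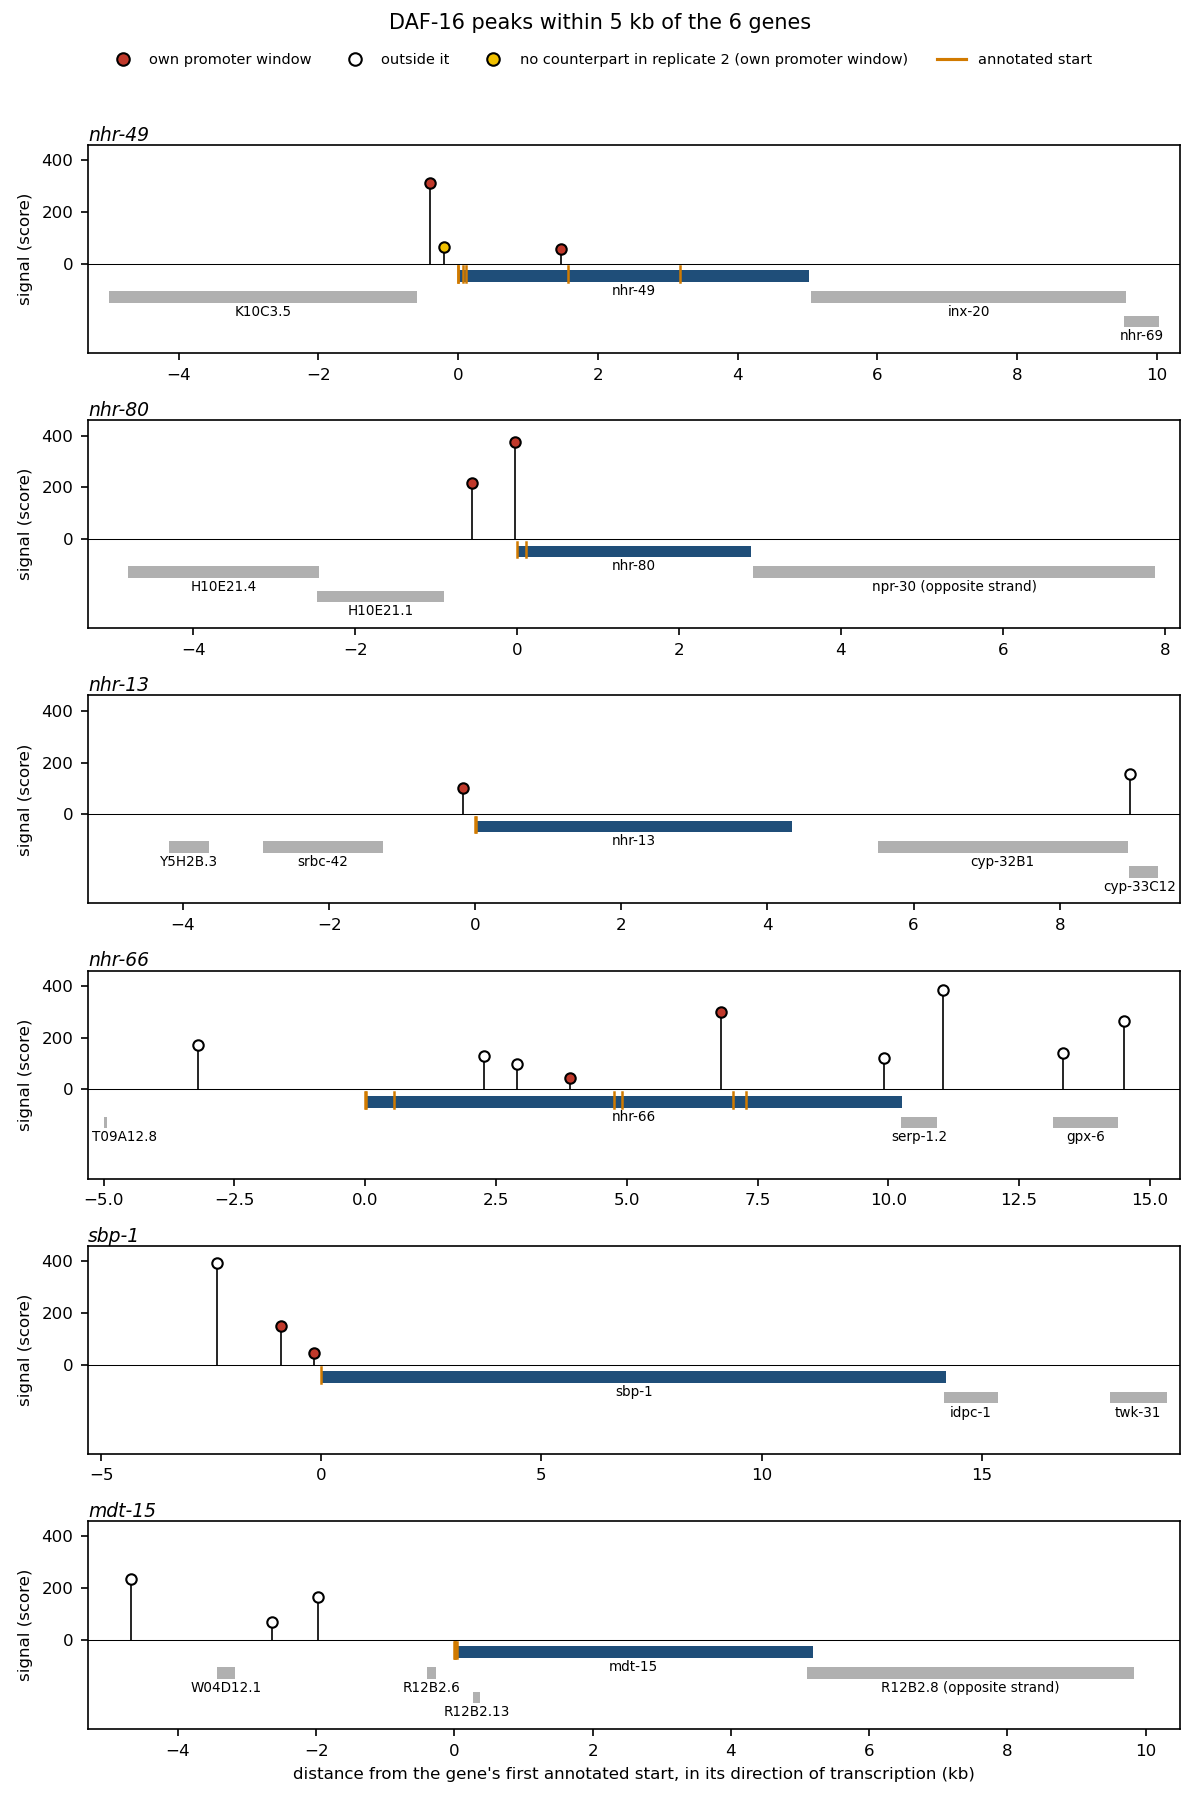
Signal of each IDR-thresholded peak (score, vertical axis) against distance from the first annotated start of each of the 6 genes, in kb along its direction of transcription. Blue bars are the genes, grey bars neighbouring protein-coding genes and orange ticks annotated starts; filled points lie in the gene's own promoter window, and all 3 points of mdt-15 are open.

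nhr-80, on the reverse strand of chromosome III from 11985 to 14869, had the strongest promoter peak of the 6 genes. Its summit lay only 25 bp upstream of the start, with a signal of 375 (500th of the nuclear peaks), 168 in replicate 1 and 208 in replicate 2. A second peak, 552 bp upstream, had a signal of 216, with 99.8 in replicate 1 and 104.6 in replicate 2. Both intergenic summits also fell in the promoter window of H10E21.1, a divergently transcribed neighbour, and the second was nearer to that gene, at 351 bp. Both peaks held copies of the DAF-16-associated element (DAE), CTTATCA or its reverse complement TGATAAG, which contains a GATA site. Sequence around each summit is shown because the DAE copies stand beside other short motifs, and the start-proximal window stops at the annotated start. Capitals mark matches to TGATAAG, to CTGCGTC (here as its reverse complement GACGCAG) and to CTCTCTC. The bases are the forward strand of the RefSeq sequence of WBcel235 (ce11), at chrIII:15346-15496 and chrIII:14870-14969.
nhr-80 upstream peak: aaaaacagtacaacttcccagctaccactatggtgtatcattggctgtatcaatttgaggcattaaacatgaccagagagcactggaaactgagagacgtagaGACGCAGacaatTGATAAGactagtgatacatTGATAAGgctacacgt
nhr-80 start-proximal peak: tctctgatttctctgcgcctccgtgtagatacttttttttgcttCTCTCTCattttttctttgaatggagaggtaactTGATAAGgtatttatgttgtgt
In the upstream peak the 2 DAE copies lay 43 and 63 bp from the summit, and in the start-proximal peak the single copy lay 57 bp away. Of the 8 DAE copies within 5 kb of nhr-80, 3 had a summit within 75 bp, and these are the 3 shown.

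nhr-13, on the forward strand of chromosome V from 2192485 to 2196827, had 1 promoter peak, weaker than the strongest promoter peak of each other gene that had one. Its summit lay 161 bp upstream of the start with a signal of 102, 38.5 in replicate 1 and 38.8 in replicate 2. It ranked 4577th of the nuclear peaks, just below their middle, and at 154 bp was the narrowest of the 22. The promoter peak held no DAE. Its window is shown because a CTGCGTC (in capitals), a motif chosen after this sequence had been seen, lay 8 bp from the summit. It is at chrV:2192249-2192399 of the same assembly, forward strand.
nhr-13 promoter peak: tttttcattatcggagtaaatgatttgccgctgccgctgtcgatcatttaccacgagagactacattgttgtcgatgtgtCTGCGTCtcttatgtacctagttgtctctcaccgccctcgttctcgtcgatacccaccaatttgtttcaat
The second peak lay 4624 bp past the end of the gene, with a signal of 156, of 73.4 in replicate 1 and of 71.0 in replicate 2. It fell in the 3' UTR of cyp-33C12 and 36 bp upstream of the start of cyp-32B1, both cytochrome P450 genes, so it lay in the promoter window of cyp-32B1 and not of nhr-13.

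nhr-66, on the reverse strand of chromosome IV from 8226331 to 8236602, had 9 peaks, the most of the set, and all 9 had counterparts in both replicates. Of all protein-coding genes 99.6% had fewer, as did 99.6% of the 806 genes whose windows were within 10% of its length. Per 10 kb of window nhr-66 had 4.44 peaks, against 2.16 over the 6 genes together and 0.872 over the nuclear genome. Neither of its promoter peaks was at the first start. The stronger lay 6803 bp inside the gene, in a 5' UTR and 222 bp upstream of an internal start, with a signal of 299.7 among the IDR-thresholded peaks, of 225 in replicate 1 and of 97.6 in replicate 2. The weaker lay 842 bp upstream of another internal start, with a signal of 46.2, of 5.31 in replicate 1 and of 42.4 in replicate 2, so it stood far lower in replicate 1's ranking (12774th of 16146) than in replicate 2's (4412th of 21378). This weaker peak and 2 others inside the gene, with signals of 129 and 97.5, lay in the exon of anr-44, an antisense non-coding RNA on the opposite strand.

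The strongest peak near nhr-66 belonged by position to a neighbour. It lay 775 bp past the end of nhr-66 and 118 bp upstream of serp-1.2, with a signal of 383, of 264 in replicate 1 and of 108 in replicate 2. A pair of peaks farther on lay at gpx-6, a glutathione peroxidase gene. The one 108 bp upstream of its start had a signal of 263, 177 in replicate 1 and 72.3 in replicate 2. The one in its coding exon had 143, 64.2 and 51.5. Another peak inside nhr-66, in its 3' UTR, had a signal of 121 and was nearest to serp-1.2. The peak farthest upstream, 3188 bp before the first nhr-66 start, had 172. The serp-1.2 window is shown because it held the only E-box (CACGTG) of the 22 peaks, 13 bp from the summit, and a DAE 41 bp from it, both in capitals, at chrIV:8225481-8225631 of the same assembly, forward strand.
nhr-66 and serp-1.2 intergenic peak: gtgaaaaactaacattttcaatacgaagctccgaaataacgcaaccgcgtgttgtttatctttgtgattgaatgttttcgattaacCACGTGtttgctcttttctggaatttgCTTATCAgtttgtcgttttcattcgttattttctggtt

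sbp-1, on the reverse strand of chromosome III from 11428367 to 11442566, has 1 annotated start, and its 3 peaks all lay upstream of it in intergenic sequence. The signal was higher the farther the summit lay from the start. At 2378 bp, outside the promoter window, the signal was 391, the highest of the 22 peaks, with 264 in replicate 1 and 149 in replicate 2. At 926 bp it was 149, with 85.3 in replicate 1 and 73.1 in replicate 2. At 172 bp it was 43.6, with 6.65 in replicate 1 and 33.4 in replicate 2, the lowest of the 22 in the IDR-thresholded list. The order of the 3 was the same in each replicate, and sbp-1 was the nearest start of all 3. The outer windows of the series are shown because their motifs differ. The distal peak held a CTGCGTC 29 bp from the summit and no DAE, and the peak nearest the start held 2 DAE copies at 33 and 53 bp, all in capitals, at chrIII:11444869-11445019 and chrIII:11442663-11442813 of the same assembly, forward strand.
sbp-1 distal peak: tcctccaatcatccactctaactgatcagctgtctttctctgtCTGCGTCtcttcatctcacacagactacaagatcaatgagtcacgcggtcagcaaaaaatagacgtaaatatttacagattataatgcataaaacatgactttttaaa
sbp-1 start-proximal peak: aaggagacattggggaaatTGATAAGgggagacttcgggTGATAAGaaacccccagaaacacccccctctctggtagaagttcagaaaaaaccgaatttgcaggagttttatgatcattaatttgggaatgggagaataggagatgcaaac

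mdt-15, on the reverse strand of chromosome III from 5828557 to 5833751, had 3 upstream peaks, the nearest 1976 bp from its first start. That peak had a signal of 166, of 121 in replicate 1 and of 57.0 in replicate 2. The next, 2644 bp upstream, had a signal of 69.0, of 14.3 in replicate 1 and of 20.4 in replicate 2, and lay in the promoter window of the neighbouring gene W04D12.1, 531 bp from its start. The farthest, at 4672 bp, had a signal of 236, of 158 in replicate 1 and of 46.9 in replicate 2. All 3 were nearer to the start of W04D12.1 than to that of mdt-15. In the pooled list, which includes background regions, a region 821 bp upstream of an mdt-15 start had a signal of 17.4, with 5.34 in replicate 1 and 2.49 in replicate 2, and it was not among the IDR-thresholded peaks, whose lowest nuclear signal was 35.4. The nearest peak is shown for its DAE (in capitals) 37 bp from the summit, at chrIII:5835652-5835802 of the same assembly, forward strand.
mdt-15 nearest upstream peak: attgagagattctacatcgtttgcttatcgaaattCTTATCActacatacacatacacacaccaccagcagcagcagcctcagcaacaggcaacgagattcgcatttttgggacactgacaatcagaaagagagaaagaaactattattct

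Among the 5 genes with a promoter peak, the order by the strongest one was nhr-80, nhr-49, nhr-66, sbp-1 and nhr-13. These peaks were stronger than the strongest promoter peaks of 94.1% (nhr-80), 90.2% (nhr-49), 89.1% (nhr-66), 60.6% (sbp-1) and 41.1% (nhr-13) of the 4779 genes with one. The first 3 places were not stable between replicates. In replicate 1 nhr-66 came first with 225, before nhr-80 with 168 and nhr-49 with 147, and in replicate 2 nhr-80 with 208 and nhr-49 with 176 came before nhr-66 with 97.6. In both replicates sbp-1 followed these 3, with nhr-13 last. Of the 269 genes named nhr, 34.6% had a promoter peak, and all 4 receptors of the set did. Among those 93 receptor genes nhr-80 was 7th by signal, nhr-49 9th, nhr-66 12th and nhr-13 67th, and nhr-68, which controls propionate breakdown genes, was first with 1250, a peak shared with the promoter window of H12C20.7.

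**Figure D2:**
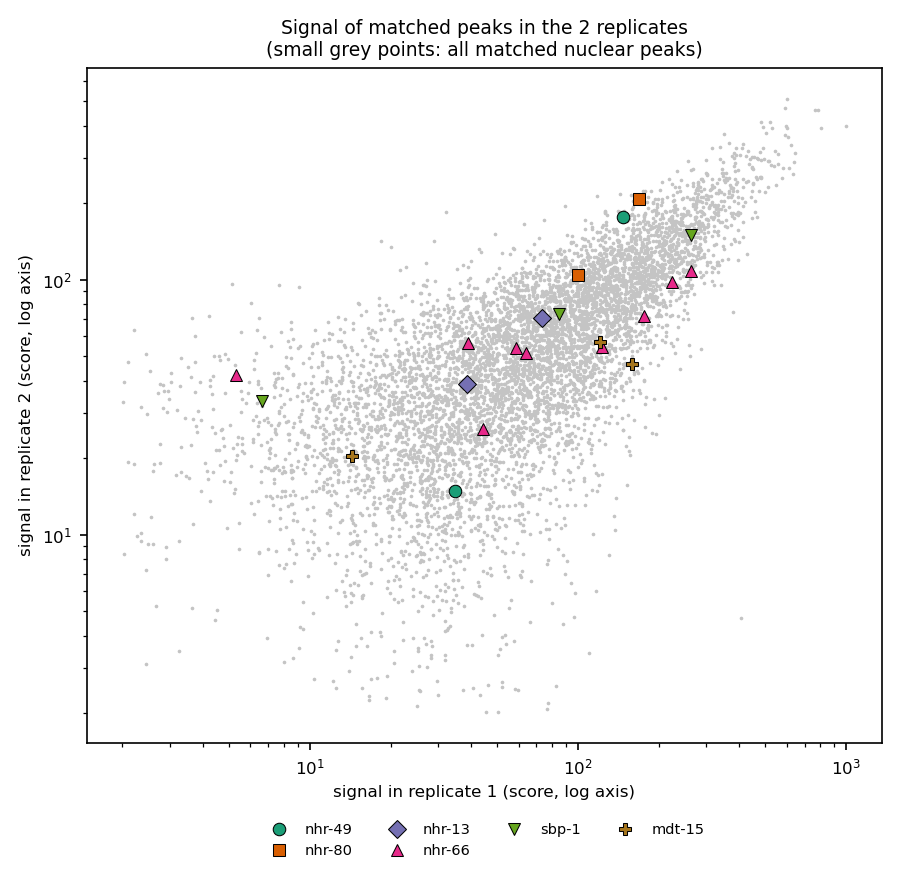
Signal in replicate 2 against signal in replicate 1 (scores, both axes logarithmic) for the 21 peaks near the 6 genes with a counterpart in both replicates, over all 6758 such nuclear peaks in grey. The nhr-80 peaks and the strongest nhr-49 peak lie along the upper side of the cloud, and the mdt-15 peak with a signal of 158 in replicate 1 lies towards its lower side.

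Across the 21 peaks with both counterparts, Spearman's rho between the replicate signals was 0.80, and it was 0.74 over all 6758 such nuclear peaks, as a description over peaks of the same pair of libraries. The weakest peaks of sbp-1 and nhr-66 stood out as much lower in the ranking of replicate 1 than of replicate 2. Over genes, the closest match to nhr-49 in its pair of replicate signals was nspa-9, with 147 in replicate 1 and 169 in replicate 2, a distance of 0.06 on the log2 scale. For nhr-80 it was hpk-1, a homeodomain-interacting protein kinase gene, at a distance of 0.12, with 175 in replicate 1 and 224 in replicate 2. The closest gene was psd-1 for nhr-13 (0.02), cest-4 for nhr-66 (0.06) and Y22D7AL.10 for sbp-1 (0.04), with 3860 or 3861 genes compared over 2 samples.

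Short motifs were searched on either strand, up to 75 bp from a summit. The DAF-16-binding element (DBE), GTAAACA, was at 0 of the 22 summits, against 8.94% of all nuclear peaks, a share that would give 1.97 of 22. Within 5 kb of the 6 genes there were 7 DBE copies, none with a summit within 75 bp, and over the nuclear genome 6.72% of DBE copies had one. The DAE was at 6 summits, or 27.3%, against 21.8% of all nuclear peaks. Of the 26 DAE copies near the 6 genes 8 had a summit within 75 bp, and over the nuclear genome 11.7% had one. These were 3 copies at nhr-80, 2 at nhr-66, 2 at sbp-1 and 1 at mdt-15, and nhr-49 and nhr-13 had none. The windows of the 6 genes held 2.16 peaks per 10 kb, against 0.872 over the nuclear genome. The shares of motif copies with a summit were not adjusted for that.

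The GATA site TGATAA, which every DAE contains, was at 11 of the 22 summits, 5 of them without a DAE, against 42.5% of all nuclear peaks. The E-box was at 1, against 6.02%. The DBE written backwards, ACAAATG, a control of the same composition, was at 2, against 4.07%. Of 2 further motifs chosen after the sequences had been seen, CTGCGTC was at 4 summits, against 7.49%, and CTCTCTC at 7, against 10.3%. The CTGCGTC copies lay at a promoter peak of nhr-80 and of nhr-13, at the distal sbp-1 peak and at the mdt-15 peak 2644 bp upstream. In windows centred 500 bp to the right of all nuclear summits the shares were 2.06% for the DBE, 3.35% for the DAE, 15.4% for the GATA site, 2.61% for the E-box, 3.59% for the DBE written backwards, 1.30% for CTGCGTC and 2.46% for CTCTCTC. A match is a run of letters and not a measured binding site.

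**Figure D3:**
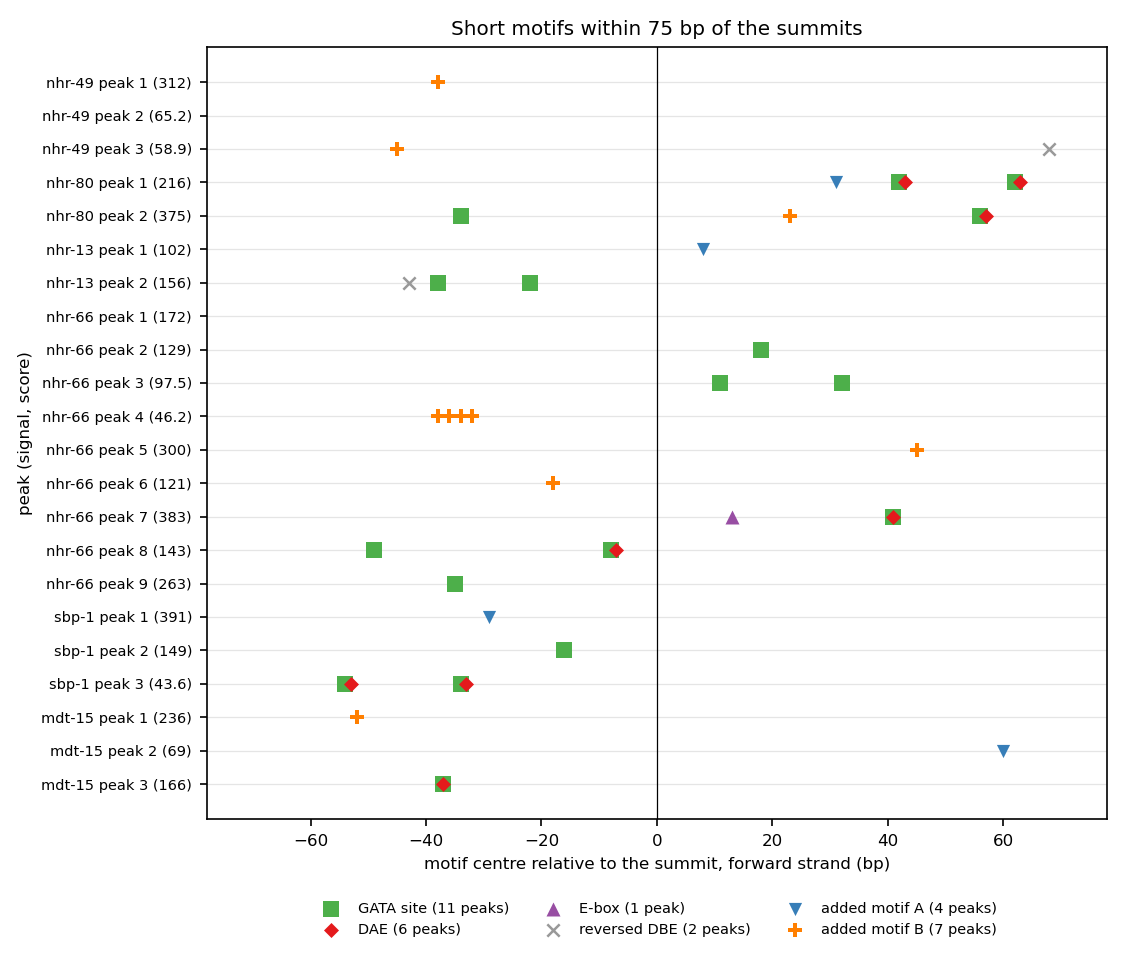
Position of each short motif relative to the summit (bp, forward strand) for the 22 peaks near the 6 genes, with each peak's signal in brackets. The added motifs A and B are CTGCGTC and CTCTCTC, chosen after the sequences had been seen; a GATA site underlies every DAE, and no DBE appears.

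Genes of lipid regulation and the other Mediator subunits, taken from textbook knowledge, were counted in 5 lists, without the 6 genes themselves. Of 68 list genes, 36 (52.9%) had a promoter peak, beside 23.9% of all protein-coding genes, and the median of their strongest signals was 131, against 122 over all genes with one. The lists were chosen with earlier results of these data known, so these values are set side by side without a test. The share was 8 of 12 for fatty acid oxidation and the fasting response and 8 of 13 for fatty acid synthesis, desaturation and elongation. It was 4 of 7 for SREBP processing and phosphatidylcholine synthesis, 5 of 9 for NHR-49 partners and other lipid or nutrient receptors, and 11 of 27 for the other Mediator subunits.

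The median signal was highest in the list of fatty acid oxidation and fasting genes, at 199. It was led by icl-1, the glyoxylate cycle enzyme gene, with 464 (233 in replicate 1 and 267 in replicate 2), a peak shared with the promoter window of srh-2. ech-6, an enoyl-CoA hydratase gene, followed with 436 (206 and 207), and hacd-1, a hydroxyacyl-CoA dehydrogenase gene, with 228 (63.0 and 165). Of the carnitine palmitoyltransferase genes, cpt-2 had 199.5 (126 and 68.3) and cpt-1 had 47.1 (11.9 in each replicate), and cpt-3 and cpt-5 had no promoter peak. In the synthesis list, median 171, the desaturase gene fat-4 led with 340 (206 and 130), before the elongase genes elo-6 with 285 (187 and 105.5) and elo-5 with 191 (123 in replicate 1, no counterpart in replicate 2). The fatty acid synthase gene fasn-1 and the desaturase genes fat-1, fat-2, fat-5 and fat-7 had no promoter peak. Within 5 kb there was no peak at fasn-1 either, but there were 4 at fat-1, 3 at fat-2, 2 at fat-5 and 2 at fat-7. Of the other desaturase genes, fat-3 had 171 (92.4 and 69.7). A signal of 172 at fat-6 (65.3 in replicate 2, no counterpart in replicate 1) was shared with the promoter window of ZK822.9.

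In the list of SREBP processing and phosphatidylcholine synthesis, median 99.3, pcyt-1 led with 126 (51.7 and 85.6), before pmt-1 with 104 (45.4 and 23.0) and lpin-1 with 94.3 (45.4 and 49.6). pcyt-1 and pmt-1 encode enzymes of phosphatidylcholine synthesis and lpin-1 a phosphatidate phosphatase. The S-adenosylmethionine synthetase gene sams-1 and the choline kinase gene ckb-2 had no promoter peak. Nor did scp-1, listed for SREBP processing, which had no peak within 5 kb either. Among the receptors, median 82.9, nhr-68 was followed by nhr-105 with 241 (143 and 82.0) and nhr-114 with 82.9 (47.5 and 33.3), and nhr-22 and nhr-25 had none. Among the other Mediator subunits, median 97.5, dpy-22, the MED12 gene, led with 201 (115.3 and 80.6), before mdt-1.2 with 165 (121 and 38.9) and mdt-6 with 147 (96.7 and 42.1). The mdt-6 peak also lay in the promoter windows of Y57E12AL.1 and Y57E12AL.6. The kinase gene cdk-8 and lin-25 had none.

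**Figure D4:**
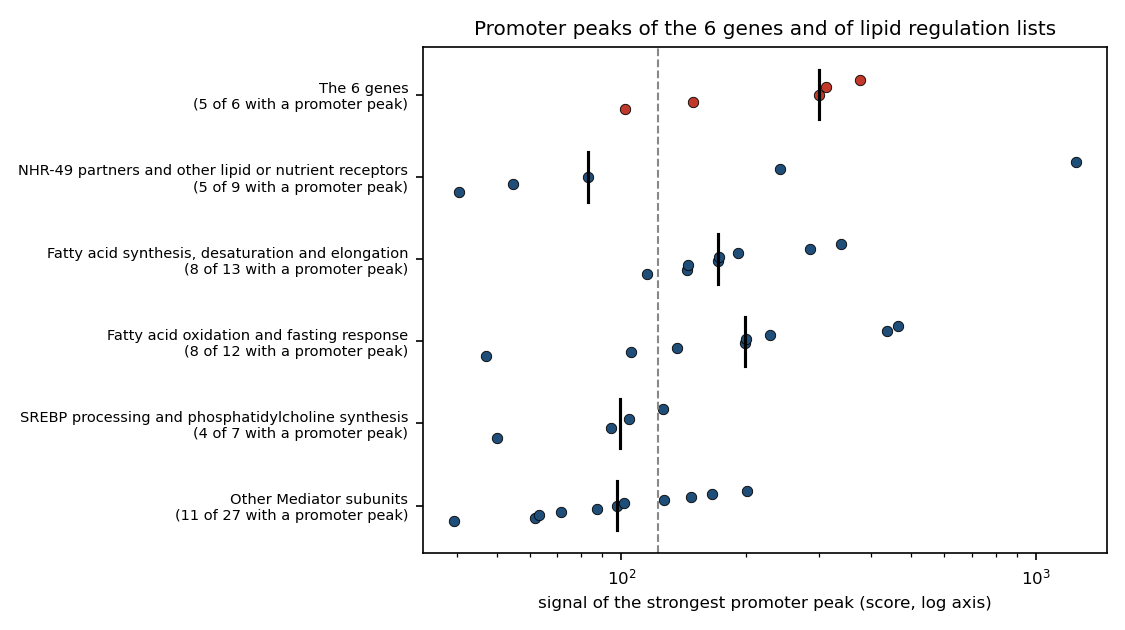
Signal of the strongest promoter peak (score, logarithmic axis) of each gene that had one, for the 6 genes and 5 lists of related genes. Vertical bars are medians and the dashed line is the median of 122 over all genes with a promoter peak; the medians of the receptors, phosphatidylcholine and Mediator lists lie to its left.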

How the data were processed

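ChIP-seq of DAF-16 gave peak lists for 2 biological replicates of 1 group, from chromatin fragmented by sonication, per the labels. The deposited lists hold, per the deposited file descriptions, peaks and background regions of each replicate and of both pooled, with a control among the inputs, and an IDR-thresholded list derived from them. The signal of a peak is a score deposited by the authors. The sources used here do not give the aligner, the peak caller or the IDR threshold. The ce10 lists were not used here.

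The ce11 summits were joined to Ensembl release 115 annotation and RefSeq sequence of WBcel235, after chromosome lengths had been checked against peak ends. Promoter windows (1000 bp before to 300 bp after a start) used every protein-coding transcript. Counterparts lay within 100 bp, and motifs within 75 bp on either strand. Promoter calls, counterparts and motif finding were tested on simulated data. With 1 group no test was made. The genes and lists were chosen with earlier results of these data known. Of the list genes, 4 symbols were not matched in the annotation and were left out of the counts. Named genes were the 6 genes, in each list up to 3 with the strongest promoter peak and up to 2 without one in alphabetical order, genes sharing or nearest a peak, and the closest gene by replicate signals. Also named were scp-1, cpt-1, cpt-2 and the remaining desaturase genes of the synthesis list. Alternatives were other windows, flanks, distances, the stronger 50% of peaks, the pooled list and each replicate's own strongest peaks. Python 3.11.15, numpy 2.4.6, pandas 2.3.3 and matplotlib 3.10.9 were used.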

Additional observations from a re-analysis of the deposited data

How the results depend on the processing

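Each replicate alone was represented by its own strongest peaks, as many as the IDR-thresholded list holds. With 5 of the 6 genes holding a promoter peak in the reported analysis, the count was 5 in either replicate alone, in the narrower window and by nearest start. It was 6 with the window of 2000 bp before to 500 bp after a start and with the pooled list, where mdt-15 was added, and 4 with the stronger 50% of peaks, where nhr-13 dropped out. Of all protein-coding genes 29.4% had a promoter peak with that window, 33.7% with the pooled list and 13.5% with the stronger 50% of peaks. The share was 18.9% in the narrower window, 19.8% by nearest start, 22.7% in replicate 1 alone and 23.7% in replicate 2 alone. Of the 36 list genes with a promoter peak, 21 had one in the stronger 50% of peaks. The 22 peaks within 5 kb became 54 regions with the pooled list, which includes background regions. The DBE count of 0 became 1 when motifs were sought within 100 bp of the summit, at the upstream nhr-80 peak, and the share over all nuclear peaks was then 10.1%. Counts in the other settings were within 1.5 times the reported ones. They ranged from 25 to 48 for list genes, 15 to 32 for peaks near the 6 genes, 15 to 21 for peaks with both counterparts and 5 to 7 for the DAE. The 25 came from the narrower window and the 48 from the pooled list, where the share of all genes also moved. The other ranges are given without a share over all genes or peaks in the same setting. No paired analysis was possible because there is 1 group. The read depth is unknown, so a missing peak says only that none passed the threshold.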

Other observations

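Below the IDR threshold, the pooled list held further regions within 5 kb of each gene, background regions included. There were 9 at nhr-49 (signals 4.99 to 23.3), 7 at mdt-15 (12.6 to 28.7), 6 at nhr-66 (3.89 to 15.2), 4 at nhr-80 (3.95 to 24.3), 3 at nhr-13 (10.2 to 27.6) and 3 at sbp-1 (3.74 to 26.9). Of these, 2 at mdt-15 and 1 each at nhr-49, nhr-80 and nhr-13 had a counterpart in both replicates, and none at nhr-66 or sbp-1 did. The strongest of the 5 was a region with a signal of 28.7 upstream of mdt-15, with its summit inside the neighbouring gene W04D12.1.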
